A study of Mus musculus with 6 samples.

Results

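Genes that define macrophages and monocytes were followed in aortas of mice that lack soluble ST2. The 9 genes were Adgre1, Itgam, Csf1r, Cd68, Lyz2, Plek, Mertk, Spi1 and Ly6c2, taken by symbol from a table of 56748 genes, and all 9 were among the 16377 genes with enough counts to be tested. Bulk RNA sequencing compared 3 aortas labelled sST2-KO with 3 aortas of wild-type littermates, labelled WT. All 6 mice were 6 months old and carried the label ApoE-KO, the loss of apolipoprotein E, and all had received angiotensin II from an osmotic pump for 28 days. No group was labelled as untreated or as having intact Apoe, and the Apoe counts, given with the library totals, did not follow that label evenly. The labels do not state how soluble ST2 was deleted or in which cells. They give each library as a numbered replicate of aorta, and p-values measure the spread between these 6 libraries.

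Macrophages in the aortic wall descend from embryonic precursors and from blood monocytes, and angiotensin II infusion in Apoe-deficient mice is known for bringing monocytes into the wall. The transcription factor PU.1, the product of Spi1, binds a purine-rich box and drives much of the myeloid programme, including the receptor for macrophage colony-stimulating factor, Csf1r. Soluble ST2 is a secreted form of the IL-33 receptor encoded by Il1rl1 and acts as a decoy for IL-33. In whole tissue, fewer macrophages and less RNA per macrophage cannot be told apart.

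RefSeq upstream sequences were available for 6 of the 9 genes, and 4 are shown because they come from 2 genes whose levels separated the groups, Itgam and Plek, and 2 whose levels overlapped, Lyz2 and Mertk. Each is the 250 bases before the annotated start, 5′ to 3′ on the gene's strand, with the PU.1 box GAGGAA, or its reverse complement TTCCTC, in capitals. The build of these sequences differs from the mm39 build of the counts.
Itgam (GRCm38.p6, chr7:128062390-128062639, plus strand): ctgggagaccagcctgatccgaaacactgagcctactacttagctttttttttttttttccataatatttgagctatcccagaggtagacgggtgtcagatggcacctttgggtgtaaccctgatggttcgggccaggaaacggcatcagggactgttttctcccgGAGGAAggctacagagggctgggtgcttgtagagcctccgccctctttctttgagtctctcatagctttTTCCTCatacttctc
Plek (GRCm38.p6, chr11:17008719-17008968, minus strand): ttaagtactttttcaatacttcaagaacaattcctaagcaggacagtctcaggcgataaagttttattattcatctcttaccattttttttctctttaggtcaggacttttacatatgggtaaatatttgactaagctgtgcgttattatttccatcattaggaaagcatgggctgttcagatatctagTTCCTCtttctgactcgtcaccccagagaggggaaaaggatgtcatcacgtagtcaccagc
Lyz2 (GRCm38.p6, chr10:117282273-117282522, minus strand): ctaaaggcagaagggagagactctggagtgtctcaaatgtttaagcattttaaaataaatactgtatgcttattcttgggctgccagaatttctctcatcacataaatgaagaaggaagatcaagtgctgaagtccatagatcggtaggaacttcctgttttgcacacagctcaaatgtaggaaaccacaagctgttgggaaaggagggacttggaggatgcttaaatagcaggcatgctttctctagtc
Mertk (GRCm38.p6, chr2:128698665-128698914, plus strand): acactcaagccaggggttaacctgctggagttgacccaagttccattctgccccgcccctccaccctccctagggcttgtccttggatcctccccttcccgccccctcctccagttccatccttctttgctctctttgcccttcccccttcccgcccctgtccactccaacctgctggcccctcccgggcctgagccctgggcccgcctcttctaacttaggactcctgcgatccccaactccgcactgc
The Itgam window held 2 matches, starting 84 and 15 bases before the annotated start, and the Plek window held 1, starting 61 bases before it. The Lyz2 and Mertk windows held 0 exact matches, and near matches were not searched. Cd68, which separated the groups, and Ly6c2, which did not, also had windows with the box. The 4 windows shown therefore do not stand for all 6 genes. In all, 4 of the 6 genes had the box in at least 1 window, and Ly6c2 had more than 1 window. Of all 32851 windows in the table, 23.3% had it. That share counts windows and not genes, so the 2 figures cannot be compared directly. A match is a run of letters and not a shown binding site. Adgre1, Csf1r and Spi1 are named only.

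Lyz2 and Ly6c2 each have a near-identical neighbour gene, and the starts of their coding sequences are shown because reads from such copies are hard to assign. Capitals mark the bases at which the 2 copies of a pair differ over the first 150 bases, from GENCODE M21 transcripts.
Lyz2: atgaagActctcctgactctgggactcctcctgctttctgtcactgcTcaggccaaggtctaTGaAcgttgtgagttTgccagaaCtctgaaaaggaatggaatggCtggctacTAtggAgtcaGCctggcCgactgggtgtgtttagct
Lyz1: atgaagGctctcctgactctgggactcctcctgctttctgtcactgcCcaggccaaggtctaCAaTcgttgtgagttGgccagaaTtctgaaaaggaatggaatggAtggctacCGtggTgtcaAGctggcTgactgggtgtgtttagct
Ly6c2: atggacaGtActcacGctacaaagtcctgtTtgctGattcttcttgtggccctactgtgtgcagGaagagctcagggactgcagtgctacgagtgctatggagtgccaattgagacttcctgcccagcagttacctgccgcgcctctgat
Ly6c1: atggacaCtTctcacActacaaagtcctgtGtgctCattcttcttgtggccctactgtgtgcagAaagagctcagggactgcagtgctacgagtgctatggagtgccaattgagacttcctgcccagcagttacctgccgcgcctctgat
Over the whole coding sequence, Lyz2 and Lyz1 were identical at 95.1% of 447 bases, and 20.1% of the 50-base windows of Lyz2 occurred unchanged in Lyz1. Ly6c2 and Ly6c1 were identical at 97.7% of 396 bases, and 46.7% of the windows of Ly6c2 occurred in Ly6c1. How the counting dealt with such reads is not given in the sources used here, so the counts of these genes are uncertain.

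Total counts were 15615658 to 17988552 per library, and levels are given as CPM, read counts made comparable between libraries of different depth with TMM factors. Il1rl1 had 2.39, 2.82 and 4.86 CPM in sST2-KO replicates 1 to 3, against 2.81, 9.49 and 4.35 CPM in WT replicates 1 to 3. The groups overlapped, and counts per gene do not separate the soluble from the membrane form. Apoe was detected at 172, 86.7 and 145 CPM in sST2-KO replicates 1 to 3, against 15.1, 11.6 and 507 CPM in WT replicates 1 to 3. These levels go against a uniform loss of Apoe RNA, with 8509 counts in WT replicate 3. WT replicates 1 and 2 lay below every sST2-KO library, and WT replicate 3 is the library with the liver transcripts given below. The part of liver RNA in its Apoe level was not tested. The sources used here do not say which part of Apoe was deleted, so the Apoe levels neither establish nor refute the genotype. Smooth muscle markers summed to 5074 to 10552 CPM in sST2-KO and 3054 to 9316 CPM in WT. Acta2 and Myh11 were the most abundant of them in every library. Tagln, at 11.3 to 30.6 CPM, and Myocd, at 3.69 to 35.4 CPM, were low in every library. Libraries also stood apart in ways the labels do not give. sST2-KO replicate 2 held airway transcripts, with 12598 CPM of the club cell gene Scgb1a1, and WT replicate 3 held liver transcripts, with 6205 CPM of Alb, the serum albumin gene. Mitochondrially encoded genes took 7.08% of counts in sST2-KO replicate 2 and 37.8% in WT replicate 2, against 18.4 to 23.7% elsewhere.

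Levels of 5 of the 9 genes, Adgre1, Plek, Itgam, Csf1r and Cd68, were lower in every sST2-KO library than in any WT library. Over all tested genes, 10% separated the groups in that direction. Log2 changes, sST2-KO over WT, were negative for 8 of the 9 genes with a median of -0.96, while 46.5% of all tested genes were negative and their median was 0.042. Lyz2, by far the most abundant of the set, was the exception. None of the 9 passed the edgeR quasi-likelihood test at an adjusted p of 0.05, where 0% of all genes were called lower. At an unadjusted p under 0.05, 7 of the 9 were lower, against 5.95% of all genes lower and 5.08% higher at that level. DESeq2 called 4 of the 9 lower, Adgre1, Itgam, Plek and Csf1r, against 1.42% of all tested genes. The genes were chosen with earlier results of these counts known, so these counts describe the set and do not test it. The same shares over all tested genes are to be read beside the counts of every gene list below.

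**Figure D1:**
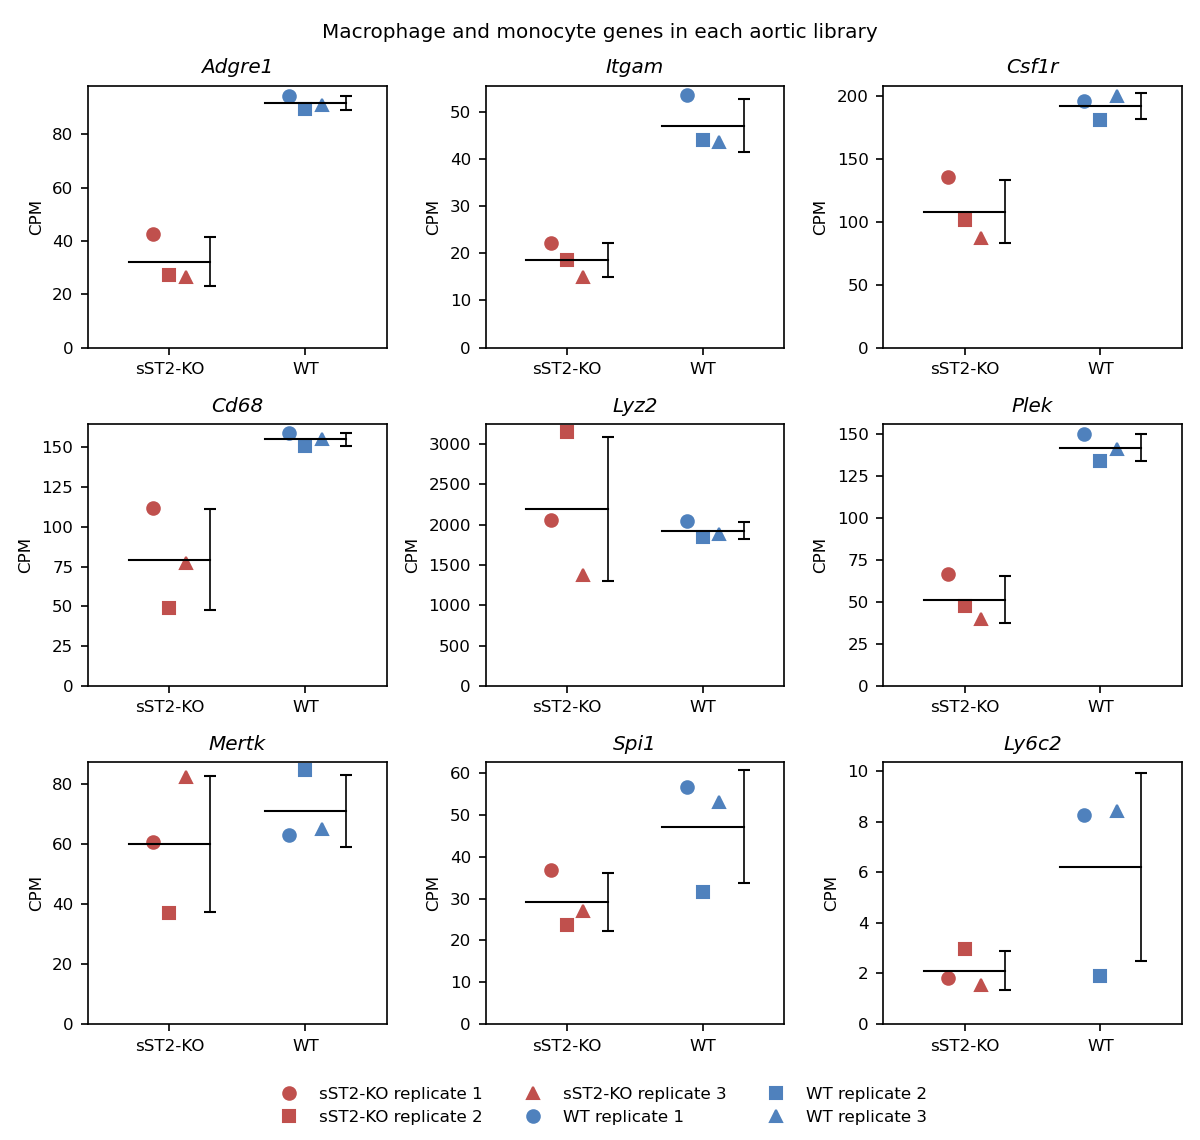
Level of each gene in CPM (y axis, from 0) in the 3 sST2-KO and the 3 WT libraries, 1 point per library, with the group mean as a line and the SD as a bar. Adgre1, Plek, Itgam, Csf1r and Cd68 do not overlap between the groups; Lyz2 runs from 1373 to 3152 CPM in sST2-KO, around the 1844 to 2043 CPM of WT.

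Adgre1, Plek and Itgam, with 1 intracellular and 2 surface proteins, were the 3 genes that separated the groups with the lowest DESeq2 adjusted p. Adgre1 encodes F4/80, the adhesion receptor used to identify mouse macrophages, and lies on chromosome 17 from 57665691 to 57790527 (mm39, plus strand). It had 42.7, 27.3 and 26.6 CPM in sST2-KO replicates 1 to 3, against 94.5, 89.3 and 90.9 CPM in WT replicates 1 to 3. The WT libraries lay within a narrow band, and the highest sST2-KO library stayed below it by a wide margin. The group means were 32.2 ± 9.07 CPM in sST2-KO and 91.5 ± 2.64 CPM in WT (SD, n = 3 each), and the log2 change was -1.51 with an SE of 0.22. Adgre1 did not pass in edgeR (adjusted p = 0.280) and passed in DESeq2 (adjusted p = 8.41e-06).

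Itgam encodes CD11b, the alpha chain of the complement receptor CR3 on monocytes, macrophages and neutrophils (chromosome 7, 127661812 to 127717663, mm39, plus strand). It had 22.1, 18.6 and 15 CPM in sST2-KO replicates 1 to 3, against 53.5, 44.0 and 43.6 CPM in WT replicates 1 to 3. Every sST2-KO library lay below every WT library. On the log2 scale the difference was -1.34 (SE 0.20), with an adjusted p of 0.282 in edgeR and 4.28e-05 in DESeq2. Itgb2, its beta chain partner, had 90.0, 41.0 and 50 CPM in sST2-KO and 129, 118 and 109 CPM in WT, and its log2 change was -0.97 (SE 0.30; edgeR adjusted p = 0.426, DESeq2 adjusted p = 0.119). In the list of leukocyte integrins and their cytoplasmic partners, 6 of 8 tested genes had negative log2 changes, 4 of them at an unadjusted p under 0.05, with a median of -0.48. The alpha 4 chain gene Itga4 had a log2 change of -1.13 (SE 0.22) and was called by DESeq2 (adjusted p = 0.00146), as 1 of the 8, while Itgax, which encodes CD11c, was at -0.91 (SE 0.24). The talin gene Tln1, which many cell types use, had 297 to 358 CPM in sST2-KO and 286 to 374 CPM in WT.

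Plek encodes pleckstrin, a protein kinase C substrate of leukocytes and platelets (chromosome 11, 16921206 to 17002381, mm39, minus strand). It had 66.6, 47.2 and 39.5 CPM in sST2-KO replicates 1 to 3, against 150, 134 and 141 CPM in WT replicates 1 to 3. The highest sST2-KO level was below every WT level. Plek had a log2 difference of -1.47 (SE 0.22; edgeR adjusted p = 0.293, DESeq2 adjusted p = 1.13e-05). Its relative Plek2, which is not restricted to leukocytes, was low, at 2.78, 5.84 and 4.59 CPM in sST2-KO and 2.54, 2.07 and 2.68 CPM in WT, and its log2 change was 0.85 (SE 0.39; edgeR adjusted p = 0.469). Platelet transcripts were lower alongside Plek. The summed level of 10 platelet markers was 38.8 to 54.5 CPM in sST2-KO and 86.3 to 128 CPM in WT, and all 9 tested markers had negative log2 changes, 4 of them called by DESeq2, with a median of -1.77. The chemokine gene Ppbp had a log2 change of -2.42 (SE 0.34) and Gp9, part of the von Willebrand factor receptor, -2.42 (SE 0.46). Gp1bb was at 0 in 5 of the 6 libraries. The part of platelet RNA in the Plek level was not tested.

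Genes of growth factor signalling and of lysosomes separated the groups by less. Csf1r encodes the receptor tyrosine kinase on which macrophage survival depends (chromosome 18, 61233670 to 61265221, mm39, plus strand). It had 136, 102 and 87.0 CPM in sST2-KO replicates 1 to 3, against 196, 181 and 200 CPM in WT replicates 1 to 3. All sST2-KO libraries lay below all WT libraries, with replicate 1 the nearest to them. Its log2 change was -0.83 (SE 0.21), with an adjusted p of 0.386 in edgeR and 0.0305 in DESeq2. Of its 2 ligands, Csf1 had 79.7, 84.6 and 72.1 CPM in sST2-KO and 103, 94.2 and 103 CPM in WT, and its log2 change was -0.34 (SE 0.14; edgeR adjusted p = 0.454). Il34, the other ligand, overlapped between the groups at 4.03 to 6.63 CPM in sST2-KO and 3.40 to 5.46 CPM in WT. In a list of CSF1R ligands, related receptors and signalling partners, 12 of 13 tested genes had negative log2 changes, 4 at an unadjusted p under 0.05 and 0 called by DESeq2, with a median of -0.62. The Src family kinase genes Fgr (log2 change -1.09, SE 0.44) and Lyn (-0.64, SE 0.23) and the lipid phosphatase gene Inpp5d (-0.62, SE 0.25) had the lowest p, and the adaptor gene Grb2, found in most cells, was at -0.13 (SE 0.16).

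Cd68 encodes a glycoprotein of late endosomes and lysosomes that is widely used to stain macrophages (chromosome 11, 69555039 to 69556979, mm39, minus strand). It had 112, 48.7 and 77.4 CPM in sST2-KO replicates 1 to 3, against 159, 151 and 155 CPM in WT replicates 1 to 3. The sST2-KO libraries were spread over more than a 2-fold range, all below the closely spaced WT libraries. The group means were 79.5 ± 31.8 CPM in sST2-KO and 155 ± 4.17 CPM in WT (SD, n = 3 each), and the log2 change was -0.96 (SE 0.30; edgeR adjusted p = 0.426, DESeq2 adjusted p = 0.112). The general lysosomal membrane gene Lamp1 had 578 to 639 CPM in sST2-KO and 592 to 768 CPM in WT, with a log2 change of -0.12 (SE 0.22). Among 13 lysosomal genes, 12 had negative log2 changes, 3 at an unadjusted p under 0.05 and 1 called by DESeq2, with a median of -0.37. The protease gene Ctss, abundant in antigen-presenting cells, was at -0.95 (SE 0.31), and Ctsb, found in many cell types, at -0.38 (SE 0.33).

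Lyz2, which encodes the lysozyme of macrophages and neutrophils, did not follow these genes (chromosome 10, 117113236 to 117118226, mm39, minus strand). It had 2051, 3152 and 1373 CPM in sST2-KO replicates 1 to 3, against 2043, 1844 and 1887 CPM in WT replicates 1 to 3. The sST2-KO libraries lay on both sides of the WT libraries. Lyz2 had a log2 difference of 0.19 (SE 0.36; edgeR adjusted p = 0.839), and without sST2-KO replicate 2, the library with airway transcripts, it was -0.17 (SE 0.28). In that library lung epithelial markers summed to 14761 CPM, against at most 7.05 CPM in the other sST2-KO libraries and 10.1 to 18.2 CPM in WT. Surfactant genes were present there, Sftpa1 at 20.8 CPM and Sftpc at 8.66 CPM, as was Plet1, from the list of 8 alveolar macrophage markers, at 74.3 CPM against at most 1.54 CPM in any other library. The other 7 markers of that list, among them Marco at 0.148 CPM and Siglecf at 0.198 CPM, were within or below the range of the other libraries. The part of airway RNA in the Lyz2 level of that library was not tested. The copy Lyz1 had 24.5, 22.1 and 21.0 CPM in sST2-KO and 16.9, 68.3 and 22.8 CPM in WT, with WT replicate 2 apart from all others.

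Mertk encodes a receptor kinase with which macrophages engulf apoptotic cells (chromosome 2, 128540876 to 128644814, mm39, plus strand). It had 60.7, 37.0 and 82.2 CPM in sST2-KO replicates 1 to 3, against 63.0, 84.7 and 64.8 CPM in WT replicates 1 to 3. The groups overlapped through sST2-KO replicate 3, which lay within the WT range. sST2-KO replicates 1 and 2 lay below every WT library, replicate 1 by a small margin. Mertk differed by -0.24 on the log2 scale (SE 0.30; edgeR adjusted p = 0.742) and 0.016 (SE 0.22) without sST2-KO replicate 2. Its ligand genes were both lower in every sST2-KO library by a small margin. Gas6 had 545, 691 and 465 CPM in sST2-KO and 745, 706 and 737 CPM in WT, and Pros1, which encodes protein S, had 108, 110 and 95.4 CPM in sST2-KO and 123, 166 and 129 CPM in WT. Their log2 changes were -0.36 (SE 0.24) and -0.42 (SE 0.18), and neither passed in edgeR or DESeq2. Of the sister receptors, Axl had 302 to 335 CPM in sST2-KO and 338 to 555 CPM in WT, and Tyro3 stood at 60.2 CPM in sST2-KO replicate 2, with no other library above 7.56 CPM. In the list of apoptotic cell clearance genes, 12 of 17 tested genes had negative log2 changes, of which 3 negative and 1 positive had an unadjusted p under 0.05 and 0 called by DESeq2, with a median of -0.22. The small GTPase gene Rac2 was at -0.78 (SE 0.24), the phosphatidylserine receptor gene Timd4 at -1.48 (SE 0.55) and Adgrb1, the positive one, at 2.54 (SE 0.95) from levels under 2.1 CPM in every library. The abundant members Cd36, a scavenger receptor gene that fat and endothelium also express, and Lrp1 were at 0.32 (SE 0.43) and -0.46 (SE 0.22).

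Spi1 encodes PU.1 (chromosome 2, 90912735 to 90946101, mm39, plus strand). It had 36.9, 23.7 and 27.0 CPM in sST2-KO replicates 1 to 3, against 56.6, 31.7 and 53.2 CPM in WT replicates 1 to 3. WT replicate 2 lay within the sST2-KO range and the other 2 WT libraries above it. For Spi1 the log2 change was -0.69 (SE 0.28; edgeR adjusted p = 0.445, DESeq2 adjusted p = 0.322), and -0.93 without WT replicate 2. Irf8, a partner of PU.1 in monocyte development, showed the same low WT library, with 33.9, 29.6 and 20.2 CPM in sST2-KO and 49.9, 22.7 and 44.5 CPM in WT. Of the 3 C/EBP factor genes listed, Cebpb and Cebpa had higher means in sST2-KO, with overlap for Cebpa, and Cebpe was too low to be tested, at most 0.346 CPM in sST2-KO and 0.656 CPM in WT. Cebpb had 96.5, 88.2 and 193 CPM in sST2-KO and 65.9, 14.0 and 77.4 CPM in WT, and its log2 change was 1.26 (SE 0.62; edgeR adjusted p = 0.486), and Cebpa, which adipocytes also express, had 371, 108 and 286 CPM in sST2-KO and 234, 55.2 and 219 CPM in WT. Adipocyte markers summed to 2124, 235 and 3095 CPM in sST2-KO and 1246, 254 and 939 CPM in WT, and the part of fat RNA in these levels was not tested. Of 15 tested myeloid transcription factors, 9 had negative log2 changes, 3 at an unadjusted p under 0.05, with a median of -0.33. Ikzf1, which encodes the lymphoid and myeloid factor Ikaros, was the 1 called by DESeq2 (log2 change -1.56, SE 0.32; adjusted p = 0.00271). The macrophage factor gene Maf was at -0.43 (SE 0.17), and Klf4, also a smooth muscle and endothelial factor, was at 0.062 (SE 0.26).

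Ly6c2, which marks inflammatory monocytes, was the least abundant of the 9 (chromosome 15, 74980007 to 74983819, mm39, minus strand). Its counts were 32, 60 and 23 in sST2-KO replicates 1 to 3, against 150, 24 and 141 in WT replicates 1 to 3, or 1.82, 2.97 and 1.53 CPM against 8.27, 1.91 and 8.41 CPM. WT replicate 2 was as low as the sST2-KO libraries, and the other 2 WT libraries were well above them. For Ly6c2 the log2 change was -1.55 (SE 0.61; edgeR adjusted p = 0.445, DESeq2 adjusted p = 0.221) and ranged from -2.00 to -1.29 as each library was left out. Its copy Ly6c1, abundant in endothelium, had 214, 111 and 251 CPM in sST2-KO and 256, 290 and 230 CPM in WT, with a log2 change of -0.43 (SE 0.32). Ccr2, the chemokine receptor gene of inflammatory monocytes, separated the groups without overlap, with 39.6, 24.9 and 18.0 CPM in sST2-KO and 79.6, 85.4 and 72.0 CPM in WT, and WT replicate 2 was its highest library.

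**Figure D2:**
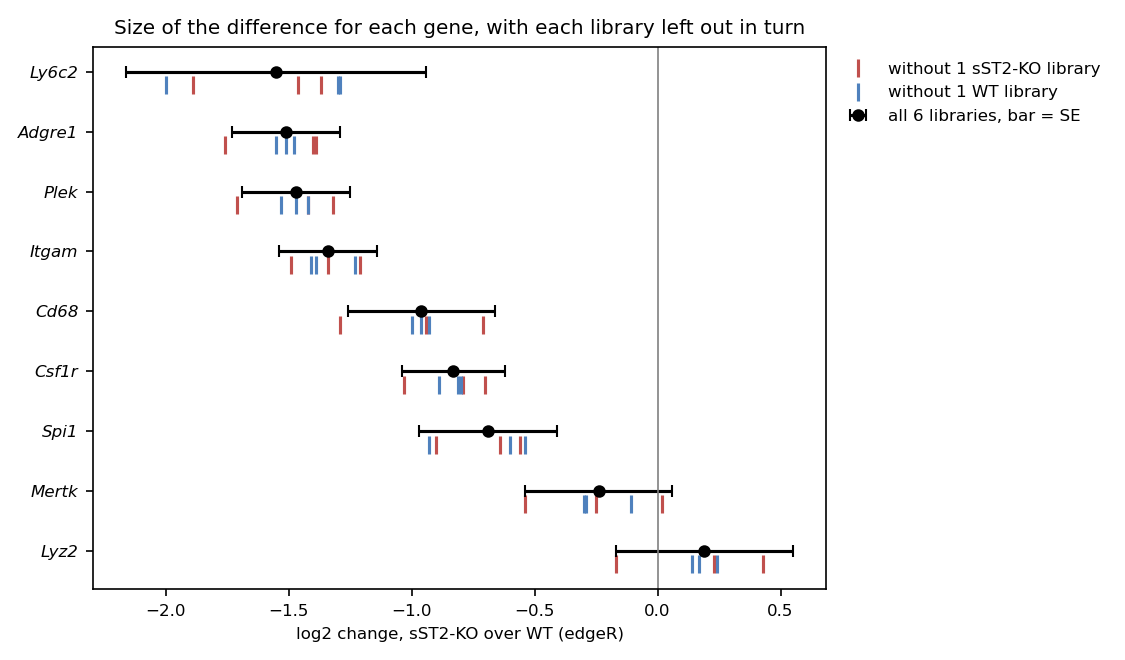
Log2 change of each gene, sST2-KO over WT (x axis), from all 6 libraries with its SE (black), and with each library left out in turn (ticks below, red for an omitted sST2-KO and blue for an omitted WT library). Adgre1 stays between -1.76 and -1.39, while Lyz2 runs from -0.17 to 0.43 and Mertk from -0.54 to 0.016.

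Per kilobase of gene length, the order of the 9 genes differed between the groups in its middle. In sST2-KO, Lyz2 came highest at 1666 ± 682 CPM per kb and Cd68 next at 63.2 ± 25.3 (SD, n = 3), followed by Csf1r at 18.7 ± 4.34, Mertk at 13.8 ± 5.21, Plek at 11.4 ± 3.11, Spi1 at 10.8 ± 2.55 and Adgre1 at 9.94 ± 2.80. From Csf1r to Adgre1 each gene's libraries overlapped those of the next in sST2-KO. In WT, Lyz2 at 1462 ± 79.5 CPM per kb and Cd68 at 123 ± 3.32 (SD, n = 3) led again, followed by Csf1r at 33.3 ± 1.75, Plek at 31.6 ± 1.85, Adgre1 at 28.3 ± 0.816, Spi1 at 17.5 ± 5.02 and Mertk at 16.3 ± 2.77. In WT, Csf1r overlapped with Plek and Spi1 with Mertk, and the other neighbours were separate. Itgam and Ly6c2 were lowest in both groups, at 3.69 ± 0.703 and 0.768 ± 0.278 CPM per kb in sST2-KO and 9.36 ± 1.12 and 2.26 ± 1.35 CPM per kb in WT (SD, n = 3).

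Levels were also set against Ptprc, which encodes CD45, the phosphatase found on all nucleated blood-derived cells. Ptprc itself had 52.6, 23.9 and 32.4 CPM in sST2-KO and 100, 87.1 and 89.6 CPM in WT, and its log2 change was -1.35 (SE 0.29; edgeR adjusted p = 0.339, DESeq2 adjusted p = 0.00634). Relative to Ptprc, Adgre1, Itgam and Plek overlapped between the groups. There were 0.812, 1.14 and 0.821 CPM of Adgre1 per CPM of Ptprc in sST2-KO and 0.942, 1.03 and 1.01 in WT. Lyz2, Mertk, Spi1, Csf1r and Cd68 were higher relative to Ptprc in every sST2-KO library, by 1.53, 1.12, 0.75, 0.57 and 0.38 on the log2 scale. Each of these 5 had an unadjusted p of 0.1 in an exact permutation test, two-sided, which is the smallest that 3 against 3 libraries can give, so none of the 9 genes could reach 0.05. Lyz2 reached 39.0, 132 and 42.4 CPM per CPM of Ptprc in sST2-KO and 20.4, 21.2 and 21.1 in WT, and Mertk reached 1.15, 1.55 and 2.54 in sST2-KO and 0.628, 0.973 and 0.724 in WT. With the median of 10 pan-leukocyte genes in place of Ptprc, Lyz2 (1.15) and Spi1 (0.37) stayed above WT in every library, Csf1r, Cd68 and Mertk overlapped, and Adgre1 (-0.50) and Plek (-0.46) were lower in every sST2-KO library (exact permutation p = 0.1 each, unadjusted). The median difference over the 9 genes was 0.38 relative to Ptprc and 0.0017 relative to the list.

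**Figure D3:**
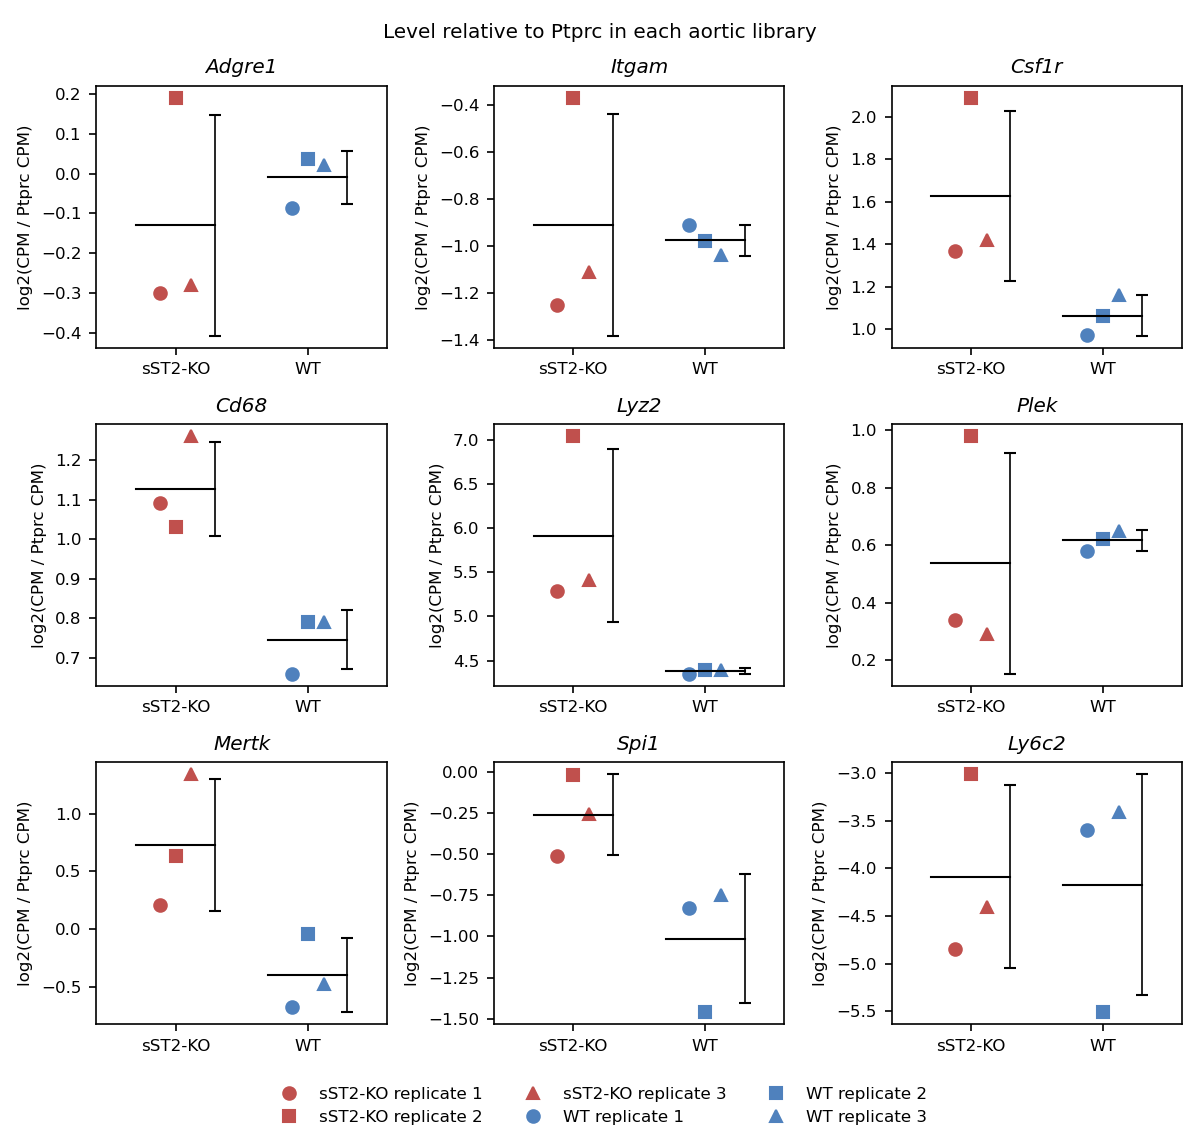
Log2 of each gene's CPM over the CPM of Ptprc (y axis, range set per panel) in the 3 sST2-KO and the 3 WT libraries, with mean and SD. Adgre1, Itgam, Plek and Ly6c2 overlap between the groups, and Csf1r, Cd68, Lyz2, Mertk and Spi1 are higher in all 3 sST2-KO libraries.

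The libraries differed within the groups. When the mean of each gene over the 6 libraries was subtracted from its log2 CPM, the median over the 9 genes came to -0.074, -0.66 and -0.72 in sST2-KO replicates 1 to 3 and 0.64, 0.42 and 0.55 in WT replicates 1 to 3. sST2-KO replicate 1 was the nearest to WT, and without it the median log2 change over the 9 genes was -1.29. Across the 6 libraries, and with the group difference contained in it, Pearson's r with Adgre1 on log2 CPM was 0.98 for Itgam and Csf1r, 0.92 for Cd68, 0.81 for Spi1, 0.63 for Ly6c2, 0.38 for Mertk and -0.13 for Lyz2. Among 13698 other named protein-coding genes, the 5 most like Adgre1 by this measure were Havcr2 (r = 0.9973), Lair1 (0.9954), Fcrls (0.9954), Lilrb4a (0.9945) and Col3a1 (0.9943). Havcr2 encodes the receptor TIM-3, Lair1 and Lilrb4a encode inhibitory receptors of leukocytes, and Fcrls encodes an Fc receptor-like protein of mouse macrophages and microglia. Col3a1, a fibrillar collagen gene of fibroblasts and smooth muscle, had 2230, 1641 and 1414 CPM in sST2-KO and 4140, 3653 and 3940 CPM in WT.

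Further macrophage and monocyte genes, listed apart from the 9, were lower with them. The log2 changes of all 20 tested genes of that list were negative, and their median was -1.03. Of these genes, 15 were at an unadjusted p under 0.05, 9 were called by DESeq2, and 14 separated the groups. Among all tested genes, 5.95% were lower at that unadjusted p and DESeq2 called 1.42% lower. The share of all genes that separated the groups is given with the 9 genes. Like the other lists, this list was chosen with earlier results of these counts known. Its counts therefore describe the list and do not test it. Lilrb4a (log2 change -1.77, SE 0.28), Ccr2 (-1.52, SE 0.29) and Cd163 (-0.78, SE 0.17), a haemoglobin scavenger receptor gene, had the lowest p. The abundant Mpeg1, which encodes a pore-forming protein of phagocytes, was at -1.04 (SE 0.33), and Lgals3, which encodes galectin-3, at -0.40 (SE 0.27) with overlapping groups. Of the pan-leukocyte genes, all 10 were negative and 4 were called by DESeq2, with a median of -1.0; the difference between the lists was not tested. Cd53, a tetraspanin gene, was at -1.20 (SE 0.25), Lcp1, which encodes L-plastin, at -1.0 (SE 0.26), Arhgdib at -0.77 (SE 0.20) and Laptm5 at -0.85 (SE 0.30).

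**Figure D4:**
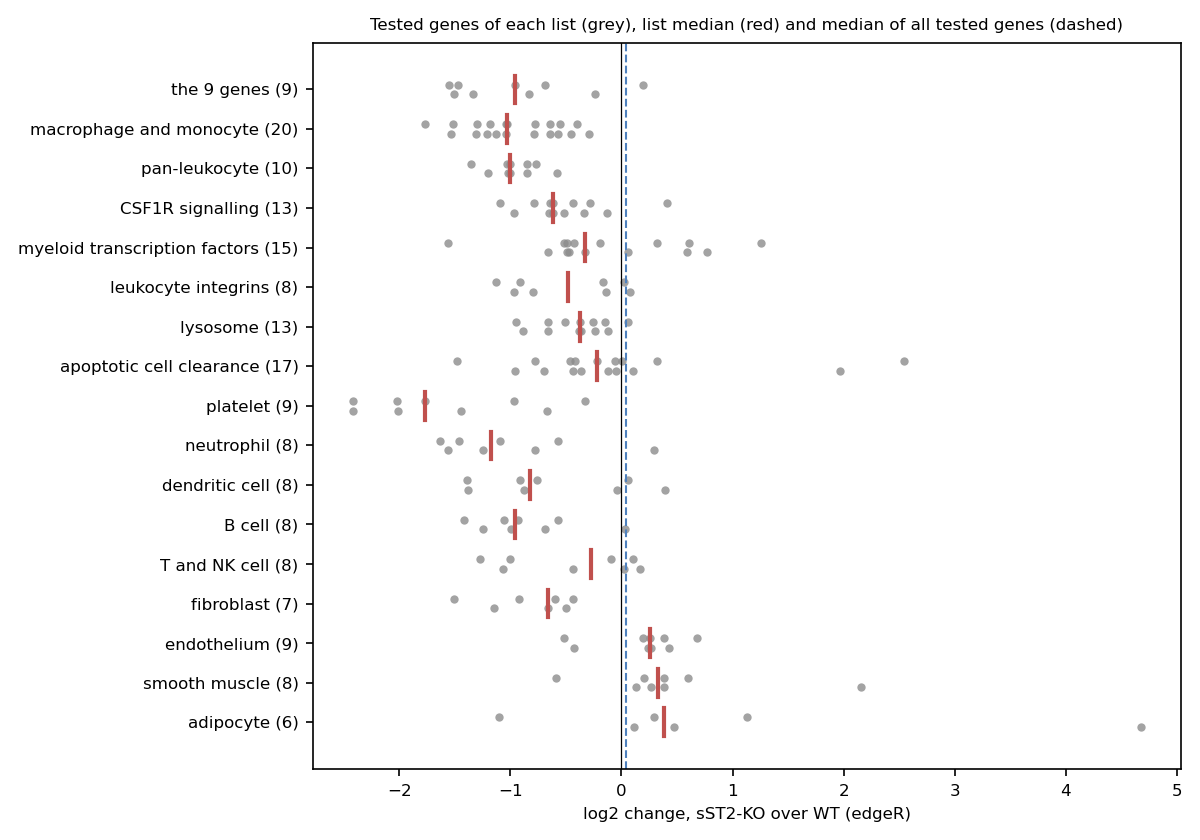
Log2 change, sST2-KO over WT (x axis), of the tested genes of each list (grey points, number of genes in parentheses), the list's median (red bar) and the median of all tested genes (dashed line, 0.042). The 9 genes, the further macrophage genes and the pan-leukocyte genes have medians of -0.96, -1.03 and -1.0. The platelet and fibroblast medians are -1.77 and -0.66, and the smooth muscle and endothelial medians are 0.33 and 0.26.

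Apart from platelets, markers of other blood cells, some of which express genes of the 9, gave few calls. Of the platelet markers, given with Plek, DESeq2 called 4 of 9 lower. Neutrophils carry Itgam and Lyz2, and 13 neutrophil markers summed to 117, 93.8 and 37.1 CPM in sST2-KO and 213, 109 and 325 CPM in WT, so the groups overlapped. Single genes weighed on these sums. Lcn2 alone held 65.0 CPM in sST2-KO replicate 2, the library with airway transcripts, and 110 CPM in WT replicate 1. Ngp had 34.6 CPM and Mpo 11.0 CPM in WT replicate 3. They had at most 0.496 and 0.165 CPM in the other WT libraries, and at most 5.51 and 0.568 CPM in sST2-KO. The median log2 change of the 8 tested markers was -1.17 and 7 were negative, 2 of them at an unadjusted p under 0.05 and 0 called by DESeq2. The collagenase gene Mmp8 was at -1.25 (SE 0.48), Lcn2 at -1.46 (SE 0.51), the calprotectin gene S100a9 at -1.63 (SE 0.93) and the receptor gene Csf3r at -1.09 (SE 0.55). The defining Ly6g was at 0 in all 3 sST2-KO libraries and at most 0.319 CPM in WT. Dendritic cell markers had a median of -0.82 over 8 genes, with Cd209a at -1.39 (SE 0.65) and Zbtb46, also expressed by endothelium, at -0.039 (SE 0.30). B cell markers had a median of -0.96 over 8 genes, and T and NK cell markers a median of -0.27 over 8, of which 3 were positive, and DESeq2 called 0 genes in each of these 3 lists. Kupffer cells, the macrophages of the liver, were marked in WT replicate 3 by Clec4f at 8.11 CPM, which was at 0 in the other 5 libraries. WT replicate 3 lay beside the other WT libraries for Adgre1, Csf1r, Cd68 and Plek, and without it the log2 change of Adgre1 was -1.51. The part of these cells in the levels of the 9 genes was not tested.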

How the data were processed

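Poly-A-selected RNA of 6 aortas was sequenced, and 1 table of raw read counts by Ensembl ID was deposited by the authors, with a gene length, symbol and position per row. The submitters' processing notes name build mm39. Aligner, counting program, strand setting and annotation version: not given in the sources used here. Columns were matched to samples by library name and groups were taken from the titles.

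Counts were tested in edgeR 4.0.16 (R 4.3.3) after filterByExpr (minimum count 10, minimum total 15) and TMM scaling, by glmQLFit and glmQLFTest over 16377 genes, and a gene was called at a Benjamini-Hochberg adjusted p under 0.05. Standard errors were obtained from the log2 change and the square root of its F statistic. Levels are TMM-normalized CPM, and CPM per kb divides them by the deposited gene length. A count of 3, the limit that a count of 0 allows, is 0.148 to 0.239 CPM; this covers counting error only. Log2 CPM used a prior count of 2. DESeq2 1.42.0 was run with independent filtering set to 0.05. Permutation tests used scipy 1.17.1, plots matplotlib 3.10.9. The edgeR fit was tested on simulated data.

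The 9 genes and the 20 gene lists (209 entries, 209 in the table) were chosen with earlier results of these data known. From each list up to 3 genes with the lowest unadjusted p and up to 2 with the highest level are named, beside set partners of the 9 genes. Some genes that this rule names are not reported here. Genes outside this rule (Marco, Siglecf, Plet1, Cebpe, Clec4f, Ly6g, Gp1bb, Sftpa1, Sftpc, Apoe, Tagln, Myocd, Ngp, Mpo) were picked after their values were seen. The labels do not say that replicate numbers pair the mice. Alternatives were other scalings, filters, tests, a replicate block and leaving out libraries.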

Additional observations from a re-analysis of the deposited data

How the results depend on the processing

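Of all tested genes, DESeq2 put 59 higher and 232 lower in sST2-KO, and 58 higher and 223 lower with its default filtering target, an alternative chosen after seeing the data. With sample quality weights, limma-voom put 8 higher and 35 lower. Among the 9 genes DESeq2 called 4 with either target, Adgre1, Itgam, Plek and Csf1r, and weighted limma-voom called 2, Adgre1 and Plek. Leaving out each library in turn gave 0 genes higher and 0 to 1 lower, and 0 of the 9; the 1 was Gm45104 without sST2-KO replicate 2 (log2 change -5.23, adjusted p = 0.0493, against -4.04 and 0.322 in edgeR on all libraries), named after its value was seen. The median log2 change of the 9 genes ranged from -1.29 to -0.79 in those fits, lowest without sST2-KO replicate 1, and was -0.76 with both sST2-KO replicate 2 and WT replicate 3 left out. Lyz2 ranged from -0.17 to 0.43 and Mertk from -0.54 to 0.016 in the same fits. Lyz2 turned to -0.016 with quality weights, -0.17 without sST2-KO replicate 2 and -0.19 without both libraries, and Mertk to 0.016 without sST2-KO replicate 2; the cause was not tested. The other 7 genes stayed negative in all 20 alternatives. With a replicate block edgeR called 0 genes and the median was -1.04, and deviations of same-numbered libraries correlated at 0.145, 0.0461 and -0.0866, so the numbers were not taken to pair the mice. RLE and upper-quartile scaling, other filters, protein-coding genes alone, unweighted limma-voom, a threshold of 0.1 and leaving out mitochondrially encoded genes or genes peculiar to 1 library called 0 genes. With 3 libraries per group and sST2-KO levels that spread as for Cd68 and Mertk, small differences were not detectable.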

Other observations

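Resident cells of the wall did not share one direction with the macrophage genes. The log2 changes of all 7 fibroblast markers were negative, their median was -0.66, and 3 were at an unadjusted p under 0.05. DESeq2 called 2 of them, Lum and Col3a1. Lum, which encodes the collagen-binding lumican, had 507, 601 and 369 CPM in sST2-KO and 1593, 1362 and 1253 CPM in WT. Dcn, which encodes decorin, had a log2 change of -0.92 (SE 0.34) and was not called (DESeq2 adjusted p = 0.0832). Of 9 endothelial markers 7 were positive with a median of 0.26 and 0 were called, with Pecam1 at 0.43 (SE 0.35), Tie1 at 0.68 (SE 0.41) and Ly6a at -0.52 (SE 0.23). Of 8 smooth muscle markers 7 were positive with a median of 0.33. Acta2, the smooth muscle actin gene, had 2890, 2933 and 6588 CPM in sST2-KO and 1644, 5479 and 2411 CPM in WT, so the groups overlapped.

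Of 6 adipocyte markers 5 were positive with a median of 0.38. Ucp1, the brown fat uncoupling gene, had 591, 35 and 1433 CPM in sST2-KO and 44.7, 2.87 and 32.3 CPM in WT. Over the 6 tested alveolar macrophage genes the median was 0.63, among which Fabp4, at 4366, 888 and 6255 CPM in sST2-KO and 2946, 1131 and 2358 CPM in WT, is also an adipocyte gene. Napsa, an aspartic protease gene of the lung epithelial list, had 3.81, 3.32 and 4.52 CPM in sST2-KO and 8.55, 8.77 and 7.33 CPM in WT, and DESeq2 called it lower (adjusted p = 0.0334). The other 2 tested genes of that list, Scgb1a1 and Epcam, were high in sST2-KO replicate 2 alone, at 12598 and 128 CPM, and the list's median of 6.36 is the value of Epcam, resting on that library. Of the 3 tested Kupffer cell genes 0 were positive with a median of -0.63. The 2 tested hepatocyte genes had a median of -6.08, which rests on WT replicate 3: Alb had at most 1.48 CPM in sST2-KO, against 6205 CPM in WT replicate 3 and at most 3.83 CPM in the other WT libraries.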
